A study of Homo sapiens with 2 samples.

Results

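The genes described here are 8 members of the cadherin adhesion system, CDH17, CDHR5, CDHR2, CDH1, CDH2, CDH3, CTNNA1 and CTNND1. They were taken by gene symbol from the platform annotation, which assigned them 22 of the 45015 features on the array (18334 genes in all). Expression was compared in COLO320 cells, a neuroendocrine line derived from a human colorectal cancer, after transfection with 100 nM of 1 of 2 siRNAs against CDX2 (siRNA 6 or siRNA 8) or of a non-targeting control siRNA. Cells were harvested 24 h after the medium was changed, and their RNA was hybridised to 1 two-colour Agilent 44K array per CDX2 siRNA, with the CDX2 siRNA sample in Cy5 and control siRNA RNA in Cy3. Values below are therefore log2 ratios of the CDX2 siRNA channel to the control channel, and each siRNA counts as 1 replicate (n = 2). All results come from 1 cell line, no array had the dyes swapped, the spread of the control itself was not measured, and the number of arrays limits the precision.

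Cadherins are transmembrane proteins that hold neighbouring cells together through calcium-dependent contacts between their extracellular domains. Classical cadherins such as E-cadherin bind p120-catenin and beta-catenin with their cytoplasmic tails, and alpha-catenin links this complex to actin. CDH17 (liver-intestine cadherin) has a short tail without the catenin-binding region and is a known target of CDX2, the homeobox transcription factor of the intestinal lineage. CDHR2 and CDHR5 are the protocadherins whose contacts bundle the microvilli of the enterocyte brush border.

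CDX2 itself was lower on both arrays, with 37.0% (siRNA 6) and 37.7% (siRNA 8) of the control signal. Its mean log2 ratio over 2 features was -1.42 ± 0.0192 (SD, n = 2) (limma, adjusted p = 0.00164). One feature stood at -1.64 with siRNA 6 and -1.46 with siRNA 8, the other at -1.23 and -1.36. They differed between the arrays in opposite directions, with SDs of 0.128 and 0.0894, so the small SD belongs to their mean alone. Of the 22 features of the 8 genes, 8 had a ratio other than exactly 0 on both arrays, 1 was at 0 on siRNA 6 alone, and 13 were at 0 on both. Values of exactly 0 were treated as missing ratios, a reading that the sources used here do not give. By that reading 5 genes were measured (CDH17, CDHR5, CDH3, CTNNA1 and CTNND1) and 3 were not (CDHR2, CDH1 and CDH2). Among all 18334 genes on the array, 5492 had no measured feature.

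**Figure D1:**
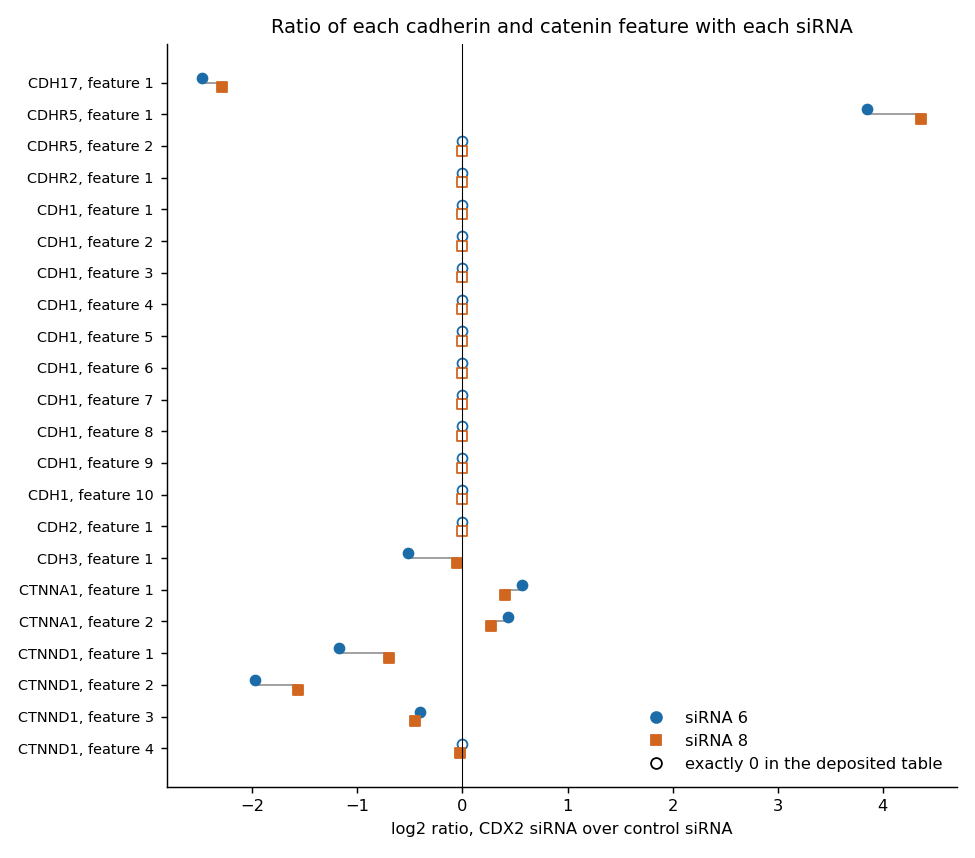
Log2 ratio (x axis) of each of the 22 features of the 8 genes (y axis), with siRNA 6 as circles and siRNA 8 as squares. Open symbols are deposited values of exactly 0. The single CDH17 feature lies below -2 on both arrays, 1 CDHR5 feature lies above 3, and the 10 CDH1 features are all at 0.

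Of the 5 measured genes, CDHR5 and CTNNA1 rose and CDH17 and CTNND1 fell, while CDH3 did not pass an adjusted p of 0.05 in limma. Across the 12842 genes tested, 40.7% passed in either direction, 12.1% higher and 28.6% lower, so a call by itself was common in this comparison. CDH17, CDHR5 and CTNND1 were also at least 1.5-fold from control in 1 direction on both arrays, which held for 26.2% of all genes (7.8% higher and 18.4% lower). The 3 genes without a ratio are in none of these counts. Both arrays were set against control siRNA RNA, and the labels do not say whether it was the same RNA. The p-values therefore reflect only variation between the 2 arrays. For each gene limma combines its own variation (1 residual degree of freedom) with that pooled over all tested genes (2.87 prior degrees of freedom). If the exact zeros are instead taken as true ratios, limma calls 0 genes after adjustment. That setting also brings rows at 0 on each array, which have no spread, into the pooled variation. Their part in the loss of calls was not tested. Unadjusted, p was then under 0.05 for 5218 of 18334 genes and for 3 of the 8 described here.

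**Figure D2:**
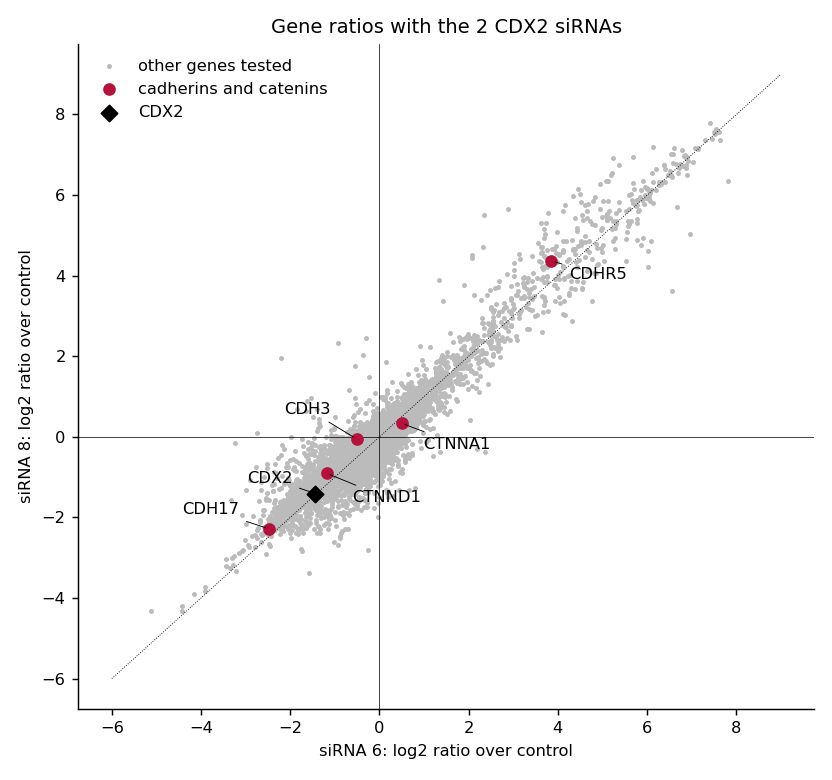
Log2 ratio of each tested gene with siRNA 6 (x axis) and siRNA 8 (y axis), each point 1 of 12842 genes, with the 5 measured cadherin and catenin genes and CDX2 named and the line of equal ratios dotted. CDHR5 lies far up on the side of increases, CDH17 lies further down than CDX2, and CDH3 and CTNNA1 lie near the centre.

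CDH17 was lower with both siRNAs. Its 1 feature (RefSeq transcript NM_004063) gave a log2 ratio of -2.47 with siRNA 6 and -2.28 with siRNA 8, or 18.0% and 20.5% of control. The mean was -2.38 ± 0.134 (SD, n = 2), 5.20-fold lower (limma, adjusted p = 0.000996). Only 0.366% of the tested genes had a mean ratio as low or lower, whereas CDX2 lay at percentile 6.24. CDH17 thus stood further below control than the targeted gene on both arrays. All tested genes had a median of -0.13 (log2), and relative to it CDH17 was at -2.25. The siRNAs differed by 1.14-fold for this feature, close to the middle of that difference among the 21068 measured features (percentile 58.0).

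CDHR5 was higher with both siRNAs, but through 1 of its 2 features. The feature of transcript NM_031264 gave 3.85 with siRNA 6 and 4.37 with siRNA 8 (log2), 14.4-fold and 20.6-fold above control. The mean was 4.11 ± 0.369 (SD, n = 2), 17.2-fold higher (limma, adjusted p = 0.000867), or 4.24 above the median of all genes. It lay at percentile 98.3 of the tested genes, less extreme in rank than CDH17 at percentile 0.366. The feature of the other transcript, NM_021924, was at exactly 0 on both arrays. Both accessions are listed for CDHR5 in RefSeq, and probe sequences were not used here, so it is not known what part of the transcripts each feature reads. The siRNAs differed by 1.44-fold, a wider gap than in 90.6% of measured features, although both ratios stayed far above control. With the zeros kept, the mean of both features was 2.05 (limma, adjusted p = 0.109). CDHR2, the partner of CDHR5 at the brush border, had 1 feature, and it was at exactly 0 on both arrays. The 2 brush border cadherins therefore cannot be compared.

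The classical cadherins gave few ratios. CDH1, which encodes E-cadherin, had 10 features of 1 accession (NM_004360), and all 20 of their values were exactly 0. Of 235 accessions with 10 or more features on the array, 34 (14.5%) were likewise at 0 on every feature and both arrays. CDH2, which encodes N-cadherin of neural and mesenchymal cells, had 1 feature, also at 0 on both arrays. Measured repeat features had a median SD of 0.0700 with siRNA 6 and 0.0747 with siRNA 8 (log2), a scatter that the CDH1 values lack. The zeros give no ratio for either gene. Since the table holds no intensities and no source used here explains exact zeros, the reason for them is not known. CDH3, which encodes P-cadherin, was measured by 1 feature. It stood at log2 -0.52 with siRNA 6 and -0.05 with siRNA 8, or 70.0% and 96.5% of control. The siRNA 6 array was the lower one, and the mean of -0.28 ± 0.328 (SD, n = 2) did not pass (limma, adjusted p = 0.203). Relative to the median of all genes CDH3 was at -0.15, less than the spread between the arrays.

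CTNNA1 encodes alpha-catenin, the link from the cadherin complex to actin, and rose by a small amount with both siRNAs. Its 2 features share the accession NM_001903. The first stood at 0.56 with siRNA 6 and 0.40 with siRNA 8 (log2), or 148% and 132% of control. The second stood at 0.43 and 0.27, or 135% and 121% of control. All 4 values were above control, and siRNA 6 was the higher array for both features. The gene mean was 0.42 ± 0.113 (SD, n = 2), 1.33-fold higher (limma, adjusted p = 0.0350). Fitted feature by feature, the first passed (limma, adjusted p = 0.0313) and the second did not (limma, adjusted p = 0.0654). The call also ended when limma's treat asked for more than a 1.2-fold change (adjusted p = 0.241). The 2 features were 0.13 apart in their mean, less than the median gap of 0.33 over 3087 accessions with 2 measured features.

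Promoter windows in the RefSeq table (GRCh38.p14, 250 bases before to 50 after a transcript start) covered 3 of the genes that could be shown, CDHR2, CDH2 and CTNNA1. CTNNA1 is the one of these with a measured ratio, so the window at the start of its gene and the most downstream of its 4 windows are printed, 5′ to 3′ on the plus strand. Capitals mark TTTAT or its reverse complement ATAAA, the core of the sequences that CDX proteins are known to bind.
CTNNA1 upstream start, chr5:138753175-138753474: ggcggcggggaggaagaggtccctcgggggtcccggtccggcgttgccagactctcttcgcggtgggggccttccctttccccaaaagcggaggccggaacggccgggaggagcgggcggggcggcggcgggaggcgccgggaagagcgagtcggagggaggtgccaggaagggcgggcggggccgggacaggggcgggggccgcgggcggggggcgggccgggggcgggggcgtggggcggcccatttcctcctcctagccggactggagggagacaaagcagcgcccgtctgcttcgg
CTNNA1 downstream start, chr5:138875150-138875449: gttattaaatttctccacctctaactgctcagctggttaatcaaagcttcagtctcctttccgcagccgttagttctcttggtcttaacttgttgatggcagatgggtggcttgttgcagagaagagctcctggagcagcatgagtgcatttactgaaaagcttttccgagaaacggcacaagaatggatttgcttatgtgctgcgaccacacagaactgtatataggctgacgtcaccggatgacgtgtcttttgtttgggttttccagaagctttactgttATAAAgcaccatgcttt
The upstream window held 0 matches on either strand and a G and C content of 77.7%, and the downstream window held 1 match and 44.7% G and C. The other 2 CTNNA1 windows held 0 matches, as did both windows of CDHR2, while the 2 windows of CDH2 held 1 and 3. Of all 35116 windows in the table, 34.9% held the motif at least once. No source used here says which start the 2 CTNNA1 features report on, and a match of these letters is not a binding site.

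CTNND1 encodes p120-catenin, which binds the cadherin tail near the membrane and holds cadherins at the cell surface. It fell with both siRNAs, by different amounts in its 3 measured features of 4. The first, of transcript NM_001331, stood at log2 -1.17 with siRNA 6 and -0.70 with siRNA 8 (44.4% and 61.5% of control). The second, of the same accession, was lower still at -1.98 and -1.57, or 25.4% and 33.7% of control. Another feature, of transcript NM_001085458, stood at -0.40 and -0.45, or 75.5% and 73.3% of control. All 6 of these values were below control, and each of the 3 features passed when fitted alone (limma, adjusted p from 0.00350 to 0.0332). The feature of transcript NM_001085461 was at 0 with siRNA 6 and at -0.02 with siRNA 8, and was left out of the gene's value. The mean of the 3 measured features was -1.04 ± 0.198 (SD, n = 2), 2.06-fold lower (limma, adjusted p = 0.00506), and -0.91 relative to the median of all genes. With every zero kept it was -0.79 (limma, adjusted p = 0.149).

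The CTNND1 ratios spread more between features (by up to 1.57 on 1 array) than between siRNAs (by up to 0.47 for 1 feature). The 2 features of NM_001331 differed by 0.80 with siRNA 6 and by 0.87 with siRNA 8 (log2), in the same order on both arrays. Their gap of 0.84 in the mean was wider than in 72.8% of accessions with 2 measured features. The feature of NM_001085458 lay above the lower of these 2 by 1.57 with siRNA 6 and by 1.12 with siRNA 8. In 162 accessions with 10 or more features, all measured, repeat features had a median SD of 0.0700 (siRNA 6) and 0.0747 (siRNA 8). The 90th percentile of that SD was 0.541 with siRNA 6 and 0.587 with siRNA 8. An SD is a different measure from the gaps between features given above. Over the 8 measured features of the 5 genes, 6 passed in the fit by feature, against 34.7% of all 21068 features. The pair that did not pass were the CDH3 feature and the second CTNNA1 feature.

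The rest of the cadherin superfamily was measured in part, and its called genes were mostly lower, as were those of the whole array. Of 51 further family members on the array (classical and type II, desmosomal and atypical cadherins and non-clustered protocadherins), 23 had a ratio on both arrays. Of these 3 rose, 9 fell and 11 did not pass, with a median log2 ratio of -0.31 against -0.13 for all genes, of which 12.1% were called higher and 28.6% lower. With each array centred on its median, 3 rose and 8 fell, since CLSTN3 no longer passed. RET, a receptor kinase with cadherin domains, had 11 features and none was measured.

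**Figure D3:**
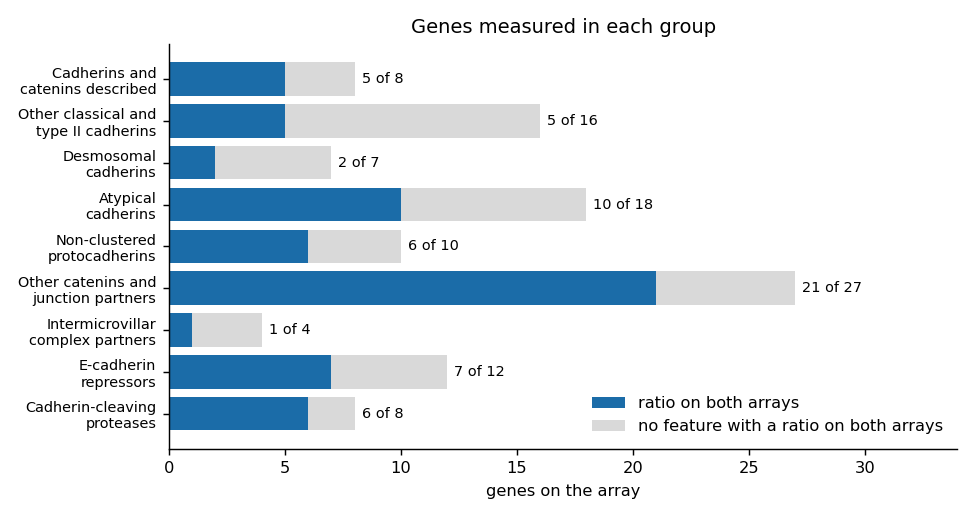
Number of genes on the array (x axis) in each group of the cadherin system (y axis), split into genes with at least 1 feature with a ratio on both arrays (blue) and genes without (grey). The share measured runs from 1 of 4 intermicrovillar complex partners to 21 of 27 other catenins and junction partners.

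Among 16 other classical and type II cadherins, 5 were measured, and CDH7 and CDH12, both type II cadherins, fell. This share of calls was near the 40.7% over all genes. CDH7 stood at log2 -1.13 with siRNA 6 and -1.06 with siRNA 8 (limma, adjusted p = 0.00271). CDH12 stood at -1.31 and -1.01 (limma, adjusted p = 0.00427). In each gene the 2 features disagreed in size, at -1.83 and -0.36 for CDH7 and at -1.79 and -0.52 for CDH12. No desmosomal cadherin of the 2 measured (of 7) passed. DSC1, a desmocollin singled out here after its values were seen, had opposite signs on the arrays, 0.79 with siRNA 6 and -1.27 with siRNA 8.

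Of 18 atypical cadherins 10 were measured. CELSR3 rose, CELSR1, FAT4 and CLSTN3 fell, and 6 did not pass, so the share called was close to the 40.7% over all genes. CELSR1, a planar cell polarity cadherin, was at log2 -1.95 and -1.62 with siRNA 6 and siRNA 8, or 3.45-fold lower in the mean (limma, adjusted p = 0.00193). It was measured by 1 of its 2 features. FAT4, a giant cadherin of the Hippo and polarity pathways, was at -1.30 and -0.67. CELSR3, a relative of CELSR1, was at 0.43 and 0.71, so these relatives lay on opposite sides of control on both arrays. CLSTN3, a calsyntenin of synapses, was at -0.58 and -0.33 and is the gene lost with centred arrays.

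All 6 measured non-clustered protocadherins of 10 on the array passed, 2 higher and 4 lower, where 40.7% of all genes did. PCDH20 was at log2 3.24 with siRNA 6 and 3.49 with siRNA 8, 10.3-fold higher (limma, adjusted p = 0.000552). PCDH7 was 2.83-fold higher, through 1 of its 4 features, while its other 3 read exactly 0 on each array. PCDH17 was 3.37-fold lower, through 1 of its 2 features, and PCDH19, a protocadherin linked to epilepsy, was 2.55-fold lower. Directions thus differed within this group of related adhesion proteins, and the median of its 6 genes was -0.93.

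Of 21 other catenins and junction partners measured, 5 rose, 5 fell and 11 did not pass, a share of calls near the 40.7% over all genes. PKP3, an armadillo protein of desmosomes, was at log2 3.02 with siRNA 6 and 4.003 with siRNA 8, 11.4-fold higher (limma, adjusted p = 0.00235). Its relative PKP2 was 2.99-fold lower, with features at -1.92 and -1.25. ARVCF, a relative of p120-catenin, was 2.67-fold lower, although its 2 features were at -2.37 and -0.46. NECTIN1, an immunoglobulin-like adhesion protein of adherens junctions, was 2.61-fold lower, with features at -2.27 and -0.50. Among armadillo proteins of the p120 and plakophilin families, grouped here after the values were seen, CTNND1, CTNND2, ARVCF and PKP2 fell and PKP3 rose. PKP4 (0.15 and 0.26) did not pass and PKP1 was not measured. Over all genes 28.6% were called lower and 12.1% higher.

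The remaining core catenins were named after their values were seen. CTNNB1, which encodes beta-catenin, had 12 features, all measured, and did not pass (limma, adjusted p = 0.413). Its 11 features of NM_001904 had a median log2 ratio of 0.22 with siRNA 6 (range 0.05 to 0.28) and 0.03 with siRNA 8 (range -0.03 to 0.10). The 2 ranges overlapped, with the siRNA 6 features mostly higher, and these features share an accession and are not replicates. JUP, which encodes plakoglobin (gamma-catenin), was at 0.46 and 0.49 and rose (limma, adjusted p = 0.0191). CTNNA2 and CTNNA3, the other alpha-catenin genes, had no measured feature. CTNND2, the delta-catenin of neurons, was at -0.99 and -0.56 and fell (limma, adjusted p = 0.0184), through 1 of its 2 features.

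**Figure D4:**
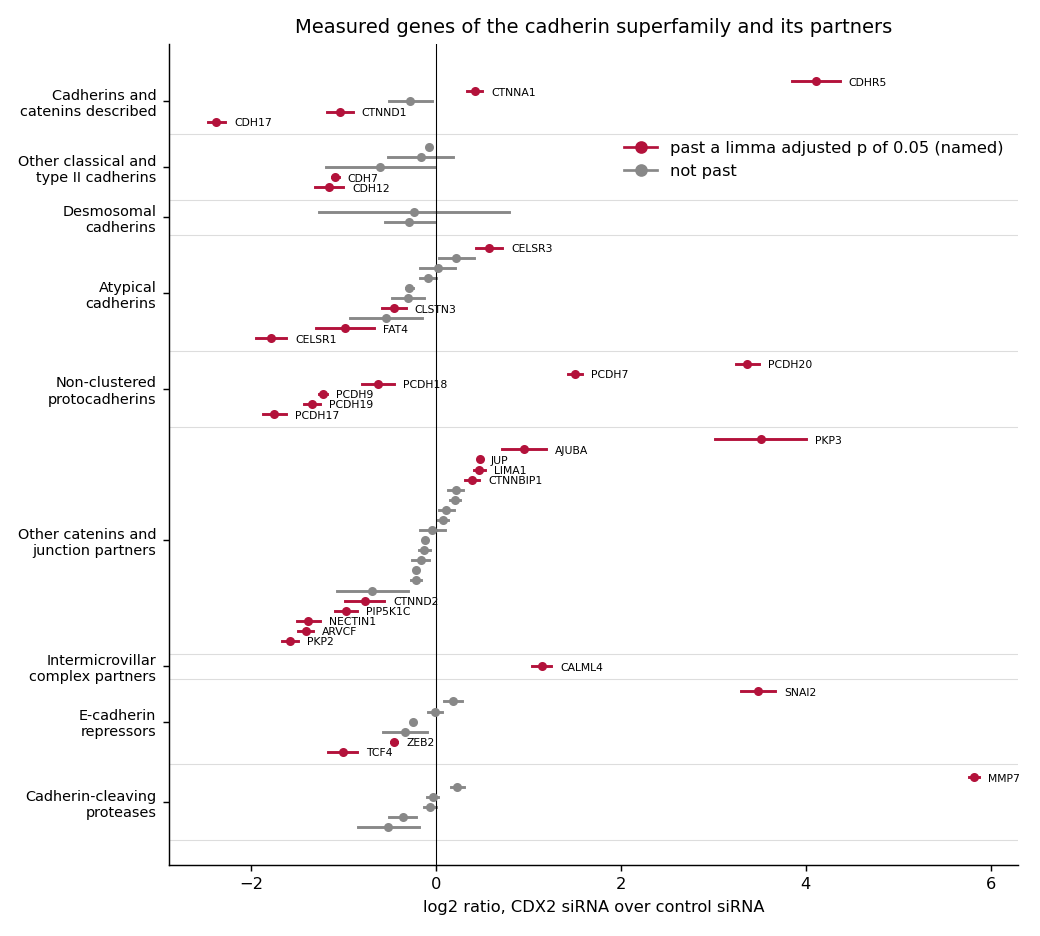
Log2 ratio (x axis) of every measured gene of the cadherin system by group (y axis), with the mean as a point and a line from the siRNA 6 to the siRNA 8 value. Red marks genes past a limma adjusted p of 0.05, which are named, and grey the others. Red genes lie on both sides of 0 among the described genes, the atypical cadherins, the protocadherins, the junction partners and the repressors.

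Of the proteins that join CDHR2 and CDHR5 in the intermicrovillar adhesion complex, CALML4, a calmodulin-like light chain, was the 1 measured of 4. It was at log2 1.24 with siRNA 6 and 1.03 with siRNA 8, 2.20-fold higher (limma, adjusted p = 0.00335). USH1C, the scaffold harmonin, ANKS4B, an adaptor, and MYO7B, the motor, had no ratio on both arrays. CDHR5 and CALML4 are thus the measured genes of this complex, both higher with both siRNAs and each resting on 1 feature. Of all tested genes 40.7% were called and 12.1% were called higher, and CDHR5 and CALML4 alone do not describe the complex.

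Transcription factors known to repress CDH1 or to drive epithelial to mesenchymal change were measured in 7 of 12 cases. Of these 1 rose and 2 fell, a share of calls near the 40.7% over all genes. SNAI2, a zinc finger repressor of CDH1, was at log2 3.30 and 3.67 with siRNA 6 and siRNA 8, 11.2-fold higher (limma, adjusted p = 0.000774), through 1 of 2 features, the other reading 0 on each array. TCF4, a basic helix-loop-helix factor, was 2.02-fold lower over 4 features that ranged from -2.31 to -0.32. ZEB2, another CDH1 repressor, was 1.37-fold lower, but its 2 measured features of 4 were on opposite sides of 0, at -1.11 and 0.19. CDH1 itself gave no ratio to set beside these values.

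Of the proteases known to cleave cadherins, 6 of 8 were measured and 1 passed, where 40.7% of all genes did. MMP7, which can shed the extracellular part of E-cadherin, was at log2 5.77 with siRNA 6 and 5.88 with siRNA 8 through its 1 feature (limma, adjusted p = 0.000133). ADAM10, the main sheddase of E-cadherin and N-cadherin, was at -0.19 and -0.84 and did not pass (limma, adjusted p = 0.101).

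The ratios give no levels, and a measured ratio does not show that a marker is expressed, so the labelled cell type could not be checked against its markers. Of 8 colonic epithelial markers 6 were measured (2 higher, 1 lower), and of 6 neuroendocrine markers 3 (1 higher, 1 lower). Over all tested genes 40.7% were called, 12.1% higher and 28.6% lower, so these small counts do not set the markers apart. With each array centred on its median, KRT20, another epithelial keratin, was also called higher, which made 3 higher and 1 lower among the epithelial markers. In that setting 1937 of all 12842 genes were called higher and 3010 lower. The epithelial adhesion protein EPCAM was at log2 -2.17 and -1.98, in the direction of CDH17, while KRT19 (1.58 and 1.54) and KRT8 (1.26 and 1.40), keratins of simple epithelia, were higher. The 2 features of KRT8 were at -0.02 and 2.68. ENO2, an enolase of neurons and neuroendocrine cells, was 1.78-fold higher and CHGA, chromogranin A, 1.34-fold lower, which no longer passed with centred arrays. Of 7 markers of mesenchymal, endothelial and blood cells 5 were measured. COL1A1 was 1.42-fold higher, and PTPRC, the leukocyte common antigen of blood cells, measured by 10 of its 11 features, was 1.94-fold lower, which no longer passed with centred or quantile normalized arrays. PTPRC was at -0.55 with siRNA 6 and -1.37 with siRNA 8, and the means of its features ranged from -1.76 to -0.22. VIL1, CDX1, SYP, NCAM1, INSM1, PECAM1 and CD68 had no ratio on both arrays. The part of any such markers in the cadherin ratios was not tested.

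The genes whose pair of ratios lay nearest to those of CDH17, by Euclidean distance over the 2 log2 ratios, were RHEBL1, a small GTPase of the RHEB family (0.0370), SDC4, a heparan sulfate proteoglycan (0.0406), and CACNA1C, a calcium channel subunit (0.0446). They stood between -2.51 and -2.44 with siRNA 6 and between -2.28 and -2.25 with siRNA 8. Nearest to CDHR5 were GABRR1, a GABA receptor subunit (0.0316), TUSC3, an oligosaccharyltransferase subunit (0.0837), and USHBP1, named as a binding protein of harmonin (0.141). Within a distance of 0.5 lay 142 genes around CDH17 and 38 around CDHR5. A likeness over 2 arrays rests on 2 values per gene and describes only their size.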

How the data were processed

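Total RNA of COLO320 cells was hybridised to 2 two-colour Agilent arrays, per the labels. The values, as deposited, were read as log10 of the Cy5 to Cy3 ratio, since Agilent Feature Extraction 9.5.3, named in the submitters' processing notes, uses that base. No source used here states the base, the background and dye correction or the genome build. As deposited, 37.1% of values with siRNA 6 and 38.7% with siRNA 8 were exactly 0.

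Values were converted to log2. The platform annotation named a single gene for 31332 of the 45015 features, several for 93 and none for 13590, and 31291 matched a RefSeq gene ID with 0 symbols changed. The 11 accessions of the 8 genes are all current RefSeq transcripts. Features other than 0 on both arrays were averaged per gene. The 12842 genes, and separately 21068 features, were fitted in R 4.3.3 with limma 3.58.1 (intercept only, eBayes, 1 residual and 2.87 prior degrees of freedom for genes, Benjamini-Hochberg over all rows, threshold 0.05). The fit was also run on simulated independent arrays with few changed rows. That setting is unlike these data, so it does not show the error rate here. Summaries used Python 3.11.15 with pandas 2.3.3.

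The 8 genes and the lists of further genes were chosen with earlier results of these data known. Of each list, up to 4 genes past the threshold with the largest smaller absolute ratio are named, and the 3 genes nearest to CDH17 and CDHR5. List genes without an annotated feature were not analysed here. Nothing in the labels says that the siRNA cultures were prepared independently.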

Additional observations from a re-analysis of the deposited data

How the results depend on the processing

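The 4 calls among the 5 measured genes (CDH17, CDHR5, CTNNA1 and CTNND1) were also made with each array centred on its median, with arrays scaled to one spread, with quantile normalization, with a robust variance prior, with the median of features, and, chosen after seeing the data, with a zero kept where the other array was not 0 and with RefSeq mRNA features. At an adjusted p of 0.01 limma called 2947 genes instead of 5225, and CTNNA1 was the gene lost. A minimum fold of 1.2 also left 3 of the 4, again without CTNNA1. With exact zeros kept, limma called 0 genes and 0 features, 0 of them among the 8 genes and 0 among their 22 features, where 5218 genes and 8163 features had an unadjusted p under 0.05, with 3 of these genes and 5 of these features belonging to the 8 genes. This setting brings rows into the fit that have 0 on each array and therefore no spread. There the limma adjusted p was 0.0925 for CDH17, 0.109 for CDHR5, 0.188 for CTNNA1 and 0.149 for CTNND1. Over the other alternatives it ran from 0.000764 to 0.00214 for CDH17, from 0.000795 to 0.00202 for CDHR5, from 0.0242 to 0.241 for CTNNA1 and from 0.00430 to 0.0159 for CTNND1. Either array alone gave 3 genes at least 1.5-fold from control, as both did together, and a 2-fold limit gave 2. Read as log2 instead of log10 ratios, 2 genes reached 1.5-fold on both arrays. No paired analysis was possible because each array is itself a ratio to control and there is 1 group. Without intensities, dim and saturated features could not be left out.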
